A study of Mus musculus with 4 samples.

Results

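The transcripts of NRF2, of its inhibitor KEAP1 and of 7 antioxidant and detoxification genes that NRF2 is known to drive were followed in H460 cells given farnesol. The 9 genes are NFE2L2 (the gene of NRF2), KEAP1, HMOX1, NQO1, AKR1C1, GCLC, GCLM, TXNRD1 and ME1. They were taken by name, as every probe of the array that carries one of these gene names and is not a control. That gave 15 of the array's 41000 probes and 9 of its 18760 gene names.

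H460 is an established human lung carcinoma line, and farnesol is an isoprenoid alcohol derived from the mevalonate pathway. Cells received 250 µM farnesol in dimethyl sulphoxide (DMSO) or DMSO alone as the vehicle, and RNA was taken after 4 h. The labels report duplicate experiments, and each farnesol RNA was hybridised with its matched vehicle RNA on 2 arrays with the dyes Cy3 and Cy5 exchanged. The 4 arrays thus hold 2 replicates (n = 2), the arrays of a replicate being technical repeats, and the labels do not say how separate the cultures were. All groups are of a single line, with no other genotype, dose or stated time, and no untreated cells beside the vehicle. The names of the vehicle samples could also be read as samples from the start of treatment. Although mouse is given as the organism of the samples, the growth protocol describes a human line and the probes list human accessions, and the genes were read as human.

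NRF2 is a transcription factor that KEAP1, an adaptor of a cullin ubiquitin ligase, holds at a low level by marking it for degradation. Electrophiles and oxidants modify KEAP1, NRF2 then builds up, and with small MAF proteins it binds antioxidant response elements near genes for glutathione synthesis, quinone reduction, heme breakdown and NADPH supply. H460 is known to carry a mutated KEAP1, so that NRF2 and its targets are already active without stress. Since NRF2 is governed mainly through its protein, the level of the NFE2L2 transcript is not a measure of its activity.

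Between 82.7% and 93.0% of spots per array stood well above background, and 19 to 51 were saturated. Log2 ratios correlated with r = 0.943 and r = 0.942 between the arrays of a pair, and with 0.633 to 0.684 between arrays of different replicates (across probes, which are not independent). All 6 epithelial markers looked at (KRT7, KRT8, KRT18, KRT19, EPCAM and CDH1) were well above background with vehicle on all 4 arrays, KRT18 at 21065 to 23673 units. Of 11 leukocyte, fibroblast and endothelial markers, PDGFRB was above background on 0 of 4 arrays and CD3D on 1, and the others lay between 69.9 (PECAM1) and 530 units (CD14).

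None of the 9 genes passed the test of farnesol against vehicle (0 of 9, limma's moderated test with Benjamini-Hochberg adjustment over 28600 features, adjusted p under 0.05), and only 3 features of the whole array did (0.0105%). With 2 replicates, the test had 1 residual degree of freedom. All 7 target genes and KEAP1 were lower with farnesol on 4 of 4 arrays, as 8 of the 9 genes, whereas 21.8% of all features were lower on all 4. No member was higher on all 4 arrays (0 of 9, against 20.9% of all features), and none was past 2-fold in a single direction on both replicates (0 of 9, against 0.892%). At an unadjusted p under 0.05, 3 of the 9 genes were lower and 0 higher, where 10.8% of all features were lower and 3.71% higher. The median log2 ratio of farnesol over vehicle was -0.37 over the 9 genes, with -0.15 in replicate 1 and -0.57 in replicate 2. Over all features tested it was 0.01, which follows from the normalization, as it centres each array's ratios near 0. A ratio of 0 thus means a change like that of the typical feature of similar brightness.

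**Figure D1:**
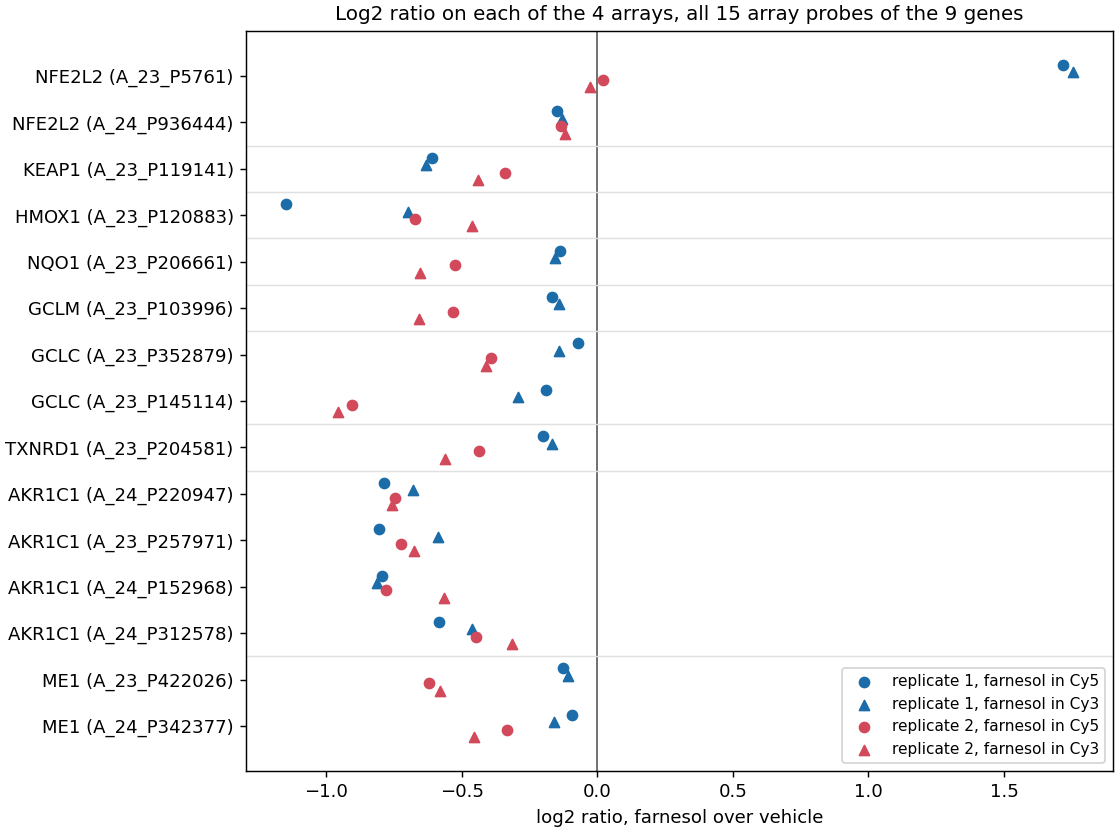
Log2 ratio of farnesol over vehicle (horizontal axis) for each of the 15 probes (vertical axis, gene and probe name), 1 point per array, coloured by replicate and shaped by the dye of farnesol. The brighter NFE2L2 probe lies at 1.72 and 1.75 in replicate 1 and at 0.02 and -0.03 in replicate 2, while the other 14 probes lie below 0 on all 4 arrays.

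NFE2L2, which encodes NRF2 itself, had the largest disagreement between the replicates. Its brighter probe (A_23_P5761) read 1.72 and 1.75 on the arrays of replicate 1 and 0.02 and -0.03 on those of replicate 2. This probe was thus higher in replicate 1 in both dye orientations and near 0 in replicate 2. The normalized intensity went from 644 with vehicle to 2146 with farnesol in replicate 1, and from 796 to 795 in replicate 2. Vehicle and farnesol levels therefore overlapped across replicates. The mean log2 ratio was 0.87 ± 1.23 (SD, n = 2), a 1.82-fold higher level, with a 95% interval of -0.86 to 2.59 and an adjusted p of 0.552 (limma). A gap of 1.74 or more between replicates was found for 38 of all features tested (0.133%), where the median gap was 0.11.

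The second NFE2L2 probe (A_24_P936444), designed on another transcript record (AF323119), did not show the higher level of replicate 1. It was lower on all 4 arrays, at -0.15, -0.13, -0.13 and -0.12, with a mean of -0.13 ± 0.01 (SD, n = 2). This probe was dim: its vehicle level was 105 units in replicate 1 and 108 in replicate 2, and its raw vehicle signal was 2.05 to 2.16 times the local background. The brighter probe's raw vehicle signal was 14.7 to 15.5 times background. The probes thus disagreed in direction in replicate 1, and their mean came to 0.37.

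KEAP1, the inhibitor that presents NRF2 to the ligase, was lower on every array. Its log2 ratios were -0.61 and -0.63 in replicate 1 and -0.34 and -0.44 in replicate 2. The vehicle level was 660 units in replicate 1 and 612 in replicate 2, against 429 and 466 with farnesol, so the groups did not overlap. The mean of -0.51 ± 0.16 (SD, n = 2) corresponds to a 1.42-fold lower level (limma, 95% interval -0.79 to -0.22, adjusted p = 0.223).

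HMOX1 encodes heme oxygenase, which breaks down heme to biliverdin, iron and carbon monoxide, and it responds to NRF2 and to the repressor BACH1. Its log2 ratios were -1.15 and -0.70 in replicate 1 and -0.67 and -0.46 in replicate 2, the lowest mean among the 9 genes. Vehicle levels agreed closely, at 11527 and 11427 units, and farnesol levels were 6076 and 7709. The levels did not overlap, and 59.6% of the vehicle level was left on average. The arrays of replicate 1 differed by 0.45 with the dyes exchanged, the widest such gap among the brightest probes of the 9 genes, and those of replicate 2 by 0.21. It was lower in both orientations. The mean was -0.75 ± 0.25 (SD, n = 2; limma, 95% interval -1.14 to -0.35, adjusted p = 0.215).

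**Figure D2:**
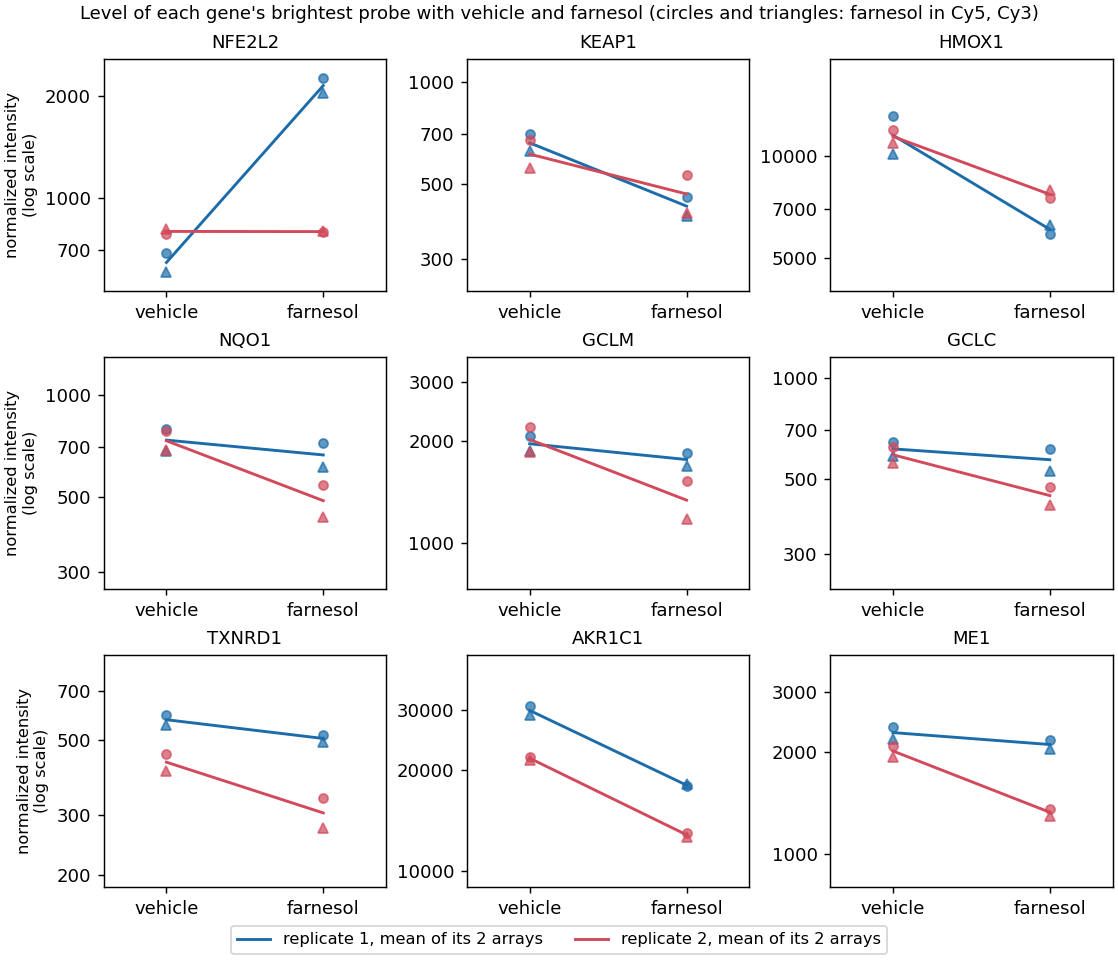
Normalized intensity (vertical axis, log scale, arbitrary units with the offset of 50 included) of the brightest probe of each gene with vehicle and farnesol. Lines join the means of the arrays of a replicate, and points are single arrays (circles for farnesol in Cy5, triangles for Cy3). NFE2L2 goes from 644 to 2146 in replicate 1 and from 796 to 795 in replicate 2, and the lines of the other 8 genes all descend.

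AKR1C1, an aldo-keto reductase that reduces steroids and reactive carbonyls, gave the closest replicates. The brightest of its 4 probes (A_24_P220947) had -0.79 and -0.68 in replicate 1 and -0.75 and -0.76 in replicate 2. Its vehicle level itself differed between replicates, 29890.5 against 21595 units, and the farnesol levels were 17979.9 and 12827. The lowest vehicle level was above the highest farnesol level, and the farnesol level was a similar share of its own vehicle in each replicate. The mean was -0.74 ± 0.01 (SD, n = 2), a 1.67-fold lower level (limma, 95% interval -0.92 to -0.56, adjusted p = 0.192).

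The other AKR1C1 probes went the same way. A_23_P257971 averaged -0.70, with vehicle levels of 26422 and 20405 units and farnesol levels of 16302 and 12554. A_24_P152968 averaged -0.74, with vehicle at 1794 and 1457 units and farnesol at 1029 and 914. A_24_P312578, at 826 and 611 units with vehicle and 575 and 469 with farnesol, averaged -0.45. All 16 readings of the 4 probes were below 0. Both bright probes also list an accession of AKR1C2, a near-identical neighbour with no probe under its own name, so these values may hold RNA of either gene.

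NQO1, which reduces quinones to hydroquinones with NADPH, is a standard readout of NRF2 activity. Its log2 ratios were -0.14 and -0.16 in replicate 1 and -0.52 and -0.65 in replicate 2. The vehicle level was nearly the same in both replicates, 734 and 731 units, and the farnesol level was 663 and 486. The difference was thus small in replicate 1 and larger in replicate 2, with no overlap of the replicate levels. Levels of single arrays did overlap, with farnesol up to 718 units in replicate 1 and vehicle down to 682 in replicate 1 and 684 in replicate 2. The mean was -0.37 ± 0.31 (SD, n = 2), a 1.29-fold lower level (limma, 95% interval -0.84 to 0.10, adjusted p = 0.432).

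GCLC and GCLM encode the catalytic and the modifier subunit of glutamate-cysteine ligase, the rate-limiting enzyme of glutathione synthesis. GCLM read -0.17 and -0.14 in replicate 1 and -0.53 and -0.66 in replicate 2. From 1969 and 2026 units with vehicle it came to 1768 and 1341 with farnesol. The levels did not overlap, and the mean was -0.37 ± 0.31 (SD, n = 2; limma, 95% interval -0.84 to 0.09, adjusted p = 0.424).

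The brighter GCLC probe (A_23_P352879) read -0.07 and -0.14 in replicate 1 and -0.39 and -0.41 in replicate 2. Its vehicle levels were 615 and 591 units and its farnesol levels 572 and 448. That gave the smallest mean among the targets, -0.25 ± 0.21 (SD, n = 2; limma, adjusted p = 0.448). The dimmer GCLC probe (A_23_P145114) gave a larger difference, -0.59 ± 0.49 (SD, n = 2), with vehicle at 550 and 533 units and farnesol at 466 and 280. Both probes of GCLC were lower on all 4 arrays, and both were further below 0 in replicate 2 than in replicate 1.

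TXNRD1, the cytosolic thioredoxin reductase that regenerates reduced thioredoxin, had -0.20 and -0.17 in replicate 1 and -0.44 and -0.56 in replicate 2. Its vehicle level was 574 units in replicate 1 and 430 in replicate 2, and its farnesol level 505 and 304. The farnesol level of replicate 1 lay above the vehicle level of replicate 2, so the levels overlapped although each array's ratio was below 0. The mean was -0.34 ± 0.22 (SD, n = 2), a 1.27-fold lower level (limma, 95% interval -0.70 to 0.02, adjusted p = 0.361).

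ME1, the cytosolic malic enzyme that yields NADPH, had -0.13 and -0.11 in replicate 1 and -0.62 and -0.58 in replicate 2. With vehicle its brighter probe (A_23_P422026) read 2279 and 2011 units, and with farnesol 2101 and 1325. Here too the levels overlapped across replicates while each array's ratio was below 0. The mean was -0.36 ± 0.34 (SD, n = 2; limma, 95% interval -0.87 to 0.15, adjusted p = 0.467). The dimmer probe (A_24_P342377) averaged -0.26, with vehicle at 514 and 441 units and farnesol at 471 and 336.

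All 15 probes were well above background on 4 of 4 arrays with vehicle and with farnesol, none was saturated, and all passed the filter on dim probes. Probe brightness depends on the probe, so these levels are not compared between genes. Overlap of levels refers throughout to the replicate means, unless single arrays are named. The share of all features without such overlap was not computed, so a lack of overlap describes a gene and is not a test. Fewer cells with a transcript and less RNA per cell cannot be told apart in these bulk samples.

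The 5 targets NQO1, GCLM, GCLC, TXNRD1 and ME1, grouped here after their values were seen, were further below 0 in replicate 2. A replicate gap as large as theirs, in either direction, was found for 9.37% (ME1) to 19.9% (GCLC) of all features tested. In replicate 1 they lay between -0.11 and -0.18, and in replicate 2 between -0.40 and -0.60. KEAP1 and HMOX1 were further below 0 in replicate 1, and AKR1C1 differed by 0.02 between replicates. By its brighter probe, NFE2L2 was the member with the highest ratio in both replicates. The replicate in which that probe was higher was the one in which those 5 targets lay closer to 0. A link between them was not tested, and the second NFE2L2 probe was at -0.14 in replicate 1 and -0.13 in replicate 2. Of the 9 genes, 6 had the larger log2 ratio in size in replicate 2, as did 17073 of the 28600 features tested, so this count is near that of the whole array.

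**Figure D3:**
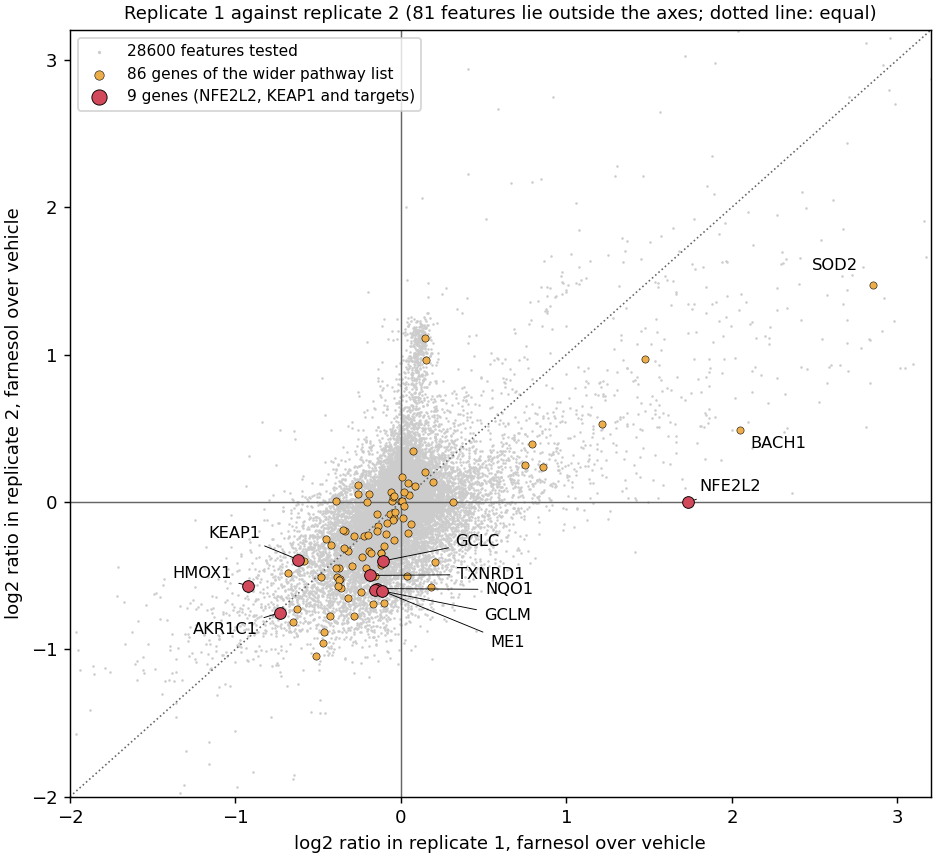
Log2 ratio of farnesol over vehicle in replicate 1 (horizontal axis) against replicate 2 (vertical axis) for the 28600 features tested (grey), the 86 genes of the wider pathway list (yellow) and the 9 genes (red). AKR1C1 lies closest to the line of equal ratios, HMOX1 and KEAP1 lie above it and the other 5 targets below it, between -0.11 and -0.18 on the horizontal axis, and NFE2L2 lies at 1.74 and -0.00. The 81 features outside the axes are not drawn.

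A wider list of 89 other genes of the pathway, grouped by role, gave 86 that were on the array and tested. None passed the test (0 of 86). At an unadjusted p under 0.05 (limma), 33 were lower and 4 higher, where 10.8% of all features tested were lower and 3.71% higher. Of the 17874 features with a gene symbol, 2328 were lower and 715 higher at that p. The count of higher genes is thus near the share of the whole array. On 4 of 4 arrays, 47 were lower (54.7%) and 14 were higher (16.3%). Among all features with a gene symbol, 24.7% were lower and 21.0% higher on all 4 arrays. The group counts below are to be read beside these shares. The median log2 ratio of the list was -0.18, with -0.13 in replicate 1 and -0.21 in replicate 2.

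Enzymes of quinone, carbonyl and xenobiotic metabolism and export were lower on 4 of 4 arrays in 16 of 21 cases and higher in 1, with a median of -0.23. The lowest of them, AKR1C3, an aldo-keto reductase of steroids and prostaglandins, had -0.63 and -0.73 in the replicates and a mean of -0.68 ± 0.07 (SD, n = 2; limma, adjusted p = 0.192). The only gene of the group higher on all 4 arrays was OSGIN1 (on the array as OKL38), a growth inhibitor induced by oxidative stress, at 0.17 ± 0.04.

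NADPH-producing enzymes were lower on all arrays for 6 of 8 genes and higher for 1, with a median of -0.26. IDH1, the cytosolic isocitrate dehydrogenase, was lowest at -0.71 ± 0.34, with -0.47 and -0.96 in the replicates, the larger difference again in replicate 2. ME3, the mitochondrial malic enzyme, was the gene higher on all arrays, at 0.10 ± 0.01.

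In the group of heme and iron, 4 of 7 genes were lower on all arrays and 0 higher, with a median of -0.26. TFRC, the transferrin receptor that takes up iron, was lowest at -0.78 ± 0.38, with -0.52 in replicate 1 and -1.05 in replicate 2 (limma, adjusted p = 0.262).

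Glutathione genes other than GCLC and GCLM were mixed. Of 21, 10 were lower (47.6%) and 4 higher (19%) on all arrays, with a median of -0.15. The higher count is near the 21.0% of all features with a gene symbol. MGST2, a microsomal glutathione transferase, was lowest at -0.58 ± 0.14. GGT1, which cleaves glutathione outside the cell, was highest at 0.63 ± 0.69. Its value rests on replicate 2, with 1.11 against 0.14 in replicate 1, and the lowest of its 3 probes gave 0.07.

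Thioredoxin, peroxiredoxin and peroxide-removing genes were lower on all arrays in 7 of 16 cases (43.8%) and higher in 3 (18.8%), with a median of -0.18. Here too the higher count is near the 21.0% of features with a gene symbol. SRXN1 (on the array as C20orf139), which reactivates oxidised peroxiredoxins, was the lowest with 4 arrays in that direction, at -0.67 ± 0.29. PRDX1, a peroxiredoxin named here after its value was seen, had -0.73 ± 0.11, lower on the 3 arrays where it was measured, since its spot was an outlier on an array of replicate 2. The group's highest values were above 0. SESN2, a stress-induced sestrin named here after its value was seen, had 1.47 and 0.97 in the replicates and a mean of 1.22 ± 0.36 (SD, n = 2; limma, adjusted p = 0.198). SOD2, the mitochondrial superoxide dismutase and also a known target of NF-kappaB, was highest. It was the sole gene of the list past 2-fold in a single direction on both replicates, with 2.85 and 1.47 and a mean of 2.16 ± 0.97 (SD, n = 2; limma, adjusted p = 0.241). The lower of its 2 probes gave 0.91.

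Regulators and partners of NRF2 were the only group with a median above 0, at 0.09. By their brightest probes, 4 of 13 genes were lower (30.8%) and 5 higher (38.5%) on all arrays. Of features with a gene symbol, 24.7% were lower and 21.0% higher, so the lower count is near that share. Among the 5, MAFK and NFE2L1, named here after their values were seen, had their lowest probes at 0.11 and -0.14. BACH1, the repressor that competes with NRF2 at HMOX1, was highest at 1.27 ± 1.10 (SD, n = 2; limma, adjusted p = 0.415). Like NFE2L2 it was much higher in replicate 1, at 2.05, than in replicate 2, at 0.49, and its other probe gave 0.04. RBX1, a subunit of the ligase that KEAP1 serves, was lowest at -0.35 ± 0.14.

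**Figure D4:**
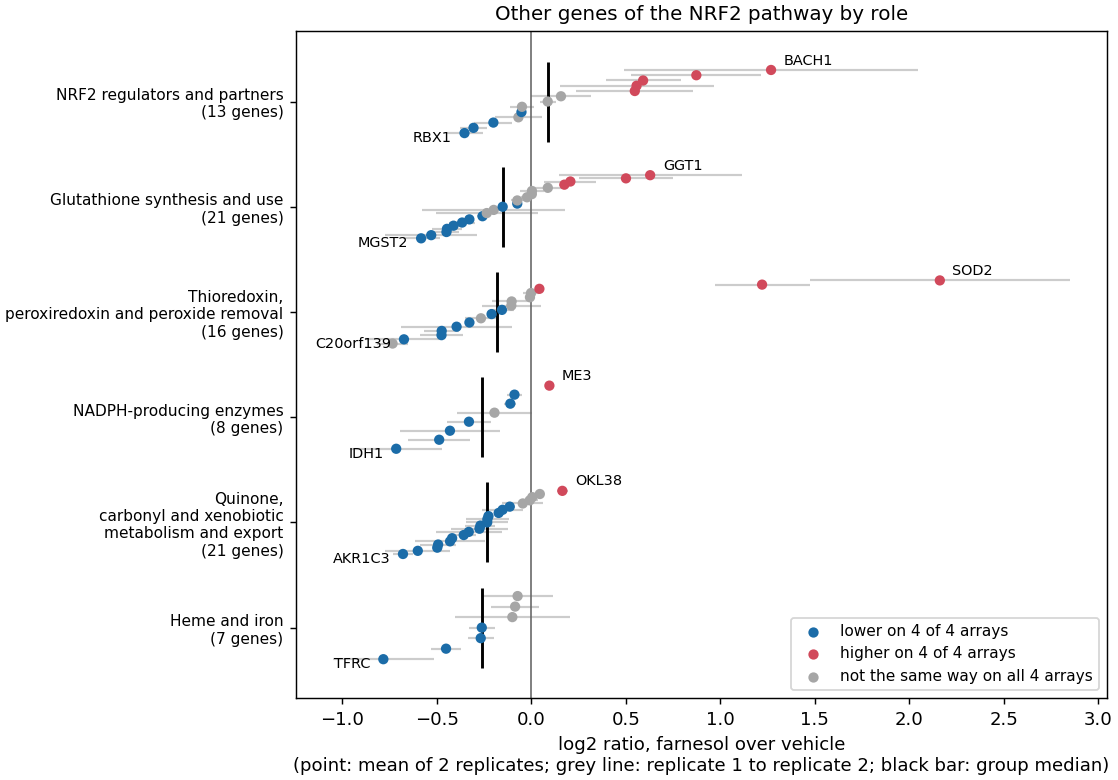
Mean log2 ratio of farnesol over vehicle (horizontal axis) of the 86 wider-list genes, by role (vertical axis), with a grey line from replicate 1 to replicate 2 and a black bar at each group's median. The medians of 5 groups lie between -0.26 and -0.15 and that of the regulators at 0.09, and SOD2 is highest at 2.16.

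The authors' deposited table, headed as signature genes of replicate 1, lists 7018 probes with a p of at most 0.001. In the authors' deposited table NFE2L2 has a ratio of farnesol over vehicle of 3.61, KEAP1 of 0.628 and HMOX1 of 0.540. The authors' deposited table gives ratios of 0.606, 0.623, 0.577 and 0.691 for the AKR1C1 probes in the order above. It does not list NQO1, GCLM, GCLC or ME1, the targets whose difference was small in replicate 1. Across the probes it lists, the log2 ratios of the authors' deposited table correlated with those of replicate 1 here at r = 0.970, which share the same arrays. It does not hold replicate 2, where NFE2L2 was at -0.00.

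TXNRD1 needs a separate word, since a probe named TXNRD1 in the authors' deposited table, with a ratio of 2.24, is not the TXNRD1 probe of the array. The array names that probe (A_23_P65068) LOC493861, and here it had 0.95 in replicate 1 and 0.33 in replicate 2, a mean of 0.64 ± 0.44 (SD, n = 2; limma, adjusted p = 0.339). The array's own TXNRD1 probe is not in the authors' deposited table, and its mean of -0.34 points the other way.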

How the data were processed

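Per the labels' protocols, amplified RNA was labelled with Cy3 or Cy5, hybridised to 60-mer Agilent arrays and scanned with Feature Extraction 8.1 (8.1.1.1 per the file headers). The deposited scanner files hold mean, background and processed intensity per spot, and, per the file headers, a log10 ratio of red over green that was not used here. The authors' deposited table gives a ratio and a p-value per probe, and its header names the direction as farnesol over vehicle. No builds or coordinates were used.

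Mean intensities were corrected with normexp (offset 50) and loess-normalized within arrays in limma 3.58.1 (R 4.3.3), leaving out control spots and outliers. Ratios were turned to farnesol over vehicle from the dyes in the labels, and dye-swapped arrays were averaged to 2 replicates. The labels write the vehicle sample of each pair as OH1ST or OH2ST and the farnesol sample as 4H1ST or 4H2ST. The deposited table gave the same direction for replicate 1, the only replicate it holds. The first character of the vehicle names could also be a digit that marks the start of treatment. In that case time and farnesol cannot be told apart. Probes had to be well above background in the same condition on 1 or more arrays per replicate. Each gene was represented by its brightest probe among the 28600 features tested. Levels are those intensities after quantile normalization of array means. The procedure was tested on simulated data. P-values rest only on these 2 replicates. For each feature, limma weighs the spread between them with that of all features tested (1.81 prior against 1 residual degree of freedom).

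The 9 genes and all lists were chosen with earlier results of these data known. Every probe of the 9 genes is named. Of the wider list, the highest and lowest gene per group with 4 arrays in that direction are named, and any gene past 2-fold in a single direction on both replicates.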

Additional observations from a re-analysis of the deposited data

How the results depend on the processing

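Beside the settings above, 12 alternatives were tried, 10 of them with a test. Across all 12, the count of genes among the 9 lower on every array used remained 8, while the share of all features lower on every array used ran from 19.8% to 38.1%. That share was 30.9% to 38.1% in the 4 settings with only 2 arrays, where the count says less. The 8 genes other than NFE2L2 kept a log2 ratio below 0 in 88 of 88 values, 11 per gene. None of the 9 passed under 9 of the 10 tests. The exception, added after seeing the data, kept the 4 arrays apart with the RNA pair as a random block (correlation 0.549): it called 2894 features, 3 of the 9 genes (AKR1C1, adjusted p = 0.00203, KEAP1, 0.0115, and HMOX1, 0.0403) and 31 of the wider list. It was fitted without a dye term, since the planned fit with one could not be run. No block of slide or scan day was run, since each array had its own slide and all were scanned on 1 day.

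Features past the threshold, 3 above, came to 65 with normexp offset 0, 60 with the scanner's processed signals, 25 with median centring, 5 with only the arrays with farnesol in Cy5 and 15 with only those in Cy3. NFE2L2 was the 1 gene of the 9 higher on every array used with offset 0, with processed signals, with farnesol in Cy5 only and without replicate 2. Its log2 ratio was 1.736 without replicate 2 and -0.0019 without replicate 1, so its higher mean rests on replicate 1. The wider list's median was -0.289 with median centring and -0.12 with every probe counted. With every probe of a gene required to go the same way, 42 of the list's genes were lower and 9 higher on all arrays. Of all single probes, 22.5% were lower and 19.8% higher. Leaving out each replicate gave medians of -0.568 to -0.155 for the 9 genes and -0.215 to -0.129 for the wider list. Median centring took the median of the 9 genes to -0.589, where that of all features was -0.01. No test is possible with 1 replicate left. Every ratio already compares a farnesol RNA with its matched vehicle RNA on the same array, so all fits were paired and no further pairing was added.

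With 4 arrays of 2 RNA pairs, the number of replicates limits the precision.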

Other observations

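Of the 28600 features tested, 326 lay between 0.9 and 1.3 in replicate 2 and between 0 and 0.25 in replicate 1. No neighbouring range was counted. They included 0 of the 9 genes and 2 of the 86 wider-list genes, GGT1 and NFE2L1, the latter named after its value was seen. With so few features in the range, these counts are not a result about the pathway.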
